A study of Mus musculus with 4 samples.

Results

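The 10 genes described here belong to the glyoxalase system and to the other enzymes that clear reactive dicarbonyls and aldehydes, and they are 10 of the 26433 genes counted in E15 mouse cerebral cortex. They were chosen from the measured counts of SERPINA3 conditional knock-in and WT cortices together with the role of each enzyme, and they are Glo1, its processed copy Gm13443, Hagh, Park7, Akr1b3, Akr1b8, Akr1a1, Aldh2, Aldh9a1 and Cbr1. Because that contrast chose them, their knock-in and WT values are a description and carry no test. Methylglyoxal (MG) forms mainly as a by-product of glycolysis, when triose phosphates lose phosphate, and it modifies arginine and lysine residues of proteins as well as DNA. The glyoxalase system disposes of it with glutathione, in that glyoxalase 1 isomerizes the adduct of MG and glutathione and glyoxalase 2 hydrolyses the product to D-lactate and returns the glutathione. Aldo-keto reductases, aldehyde dehydrogenases and carbonyl reductase remove MG and related carbonyls by other routes, and in the embryonic cortex the level of MG has been linked to how neural progenitors are maintained.

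Bulk RNA sequencing compared 2 libraries of cKI f/+ cortex with 2 libraries of WT cortex, all at E15, to find genes that differ when human SERPINA3 is expressed in the developing cortex. The cKI f/+ embryos carried 1 Rosa26 allele with flag-tagged human SERPINA3 under the CAG promoter, held silent by a loxP-flanked stop cassette, together with Nestin-Cre. Nestin-Cre acts in Nestin-positive cells and their progeny, so blood, microglial and meningeal cells of the dissected tissue lie largely outside its reach. WT embryos were littermates, whether they carried Nestin-Cre is not given in the sources used here, and the labels give the strain of both groups as C57BL/6. The methods add that the edited founders were bred with B6D2F2 mice, a stock of mixed C57BL/6 and DBA/2 descent, before the cross to Nestin-Cre mice. The labels call the tissue cerebral cortex, and the methods speak of telencephalic tissue for the sequenced RNA. The human transcript itself was not analysed here, so the genotype labels were not checked through it.

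The libraries were named KI2 and KI3 for cKI f/+ and WT1 and WT3 for WT, and their counts summed to 17736663, 18119444, 17615212 and 17423512. Levels are given as CPM, counts scaled to the library total, after TMM normalization, which evens out library composition. A floor of 3 counts equals 0.166 to 0.172 CPM in these libraries and covers counting error only. Libraries of a group differed by more than sampling noise, with a chi-square per degree of freedom of 5.7 for the cKI f/+ pair and 7.56 for the WT pair. Replicates varied with a biological coefficient of 8.72%. For 2 libraries a group, a two-sided exact permutation test cannot go below 0.333. Every p given is therefore from edgeR's model and its shared spread across genes, except where DESeq2 is named.

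Markers of the dorsal cortex were abundant in every library. Neurod6, a transcription factor of cortical projection neurons and the marker with the most counts, was at 1110 and 964 CPM in cKI f/+ and at 1080 and 1120 CPM in WT, and edgeR called 0 of the 10 dorsal markers between genotypes, with 0 at an unadjusted p under 0.05. Summed ventral telencephalic markers were at 156, 179, 173 and 225 CPM in KI2, KI3, WT1 and WT3, led by Dlx1, a factor of the interneuron lineage, at 98.6, 108, 101 and 129 CPM. Of these 6 markers edgeR called 0, while 5 had a log2 fold change below 0 and 1 above. Both cKI f/+ libraries were below both WT libraries for 2 of them and above for 1. In the edgeR fit 2 had an unadjusted p under 0.05, in opposite directions. Dlx2 was at 24.8, 33.6, 38.5 and 49.5 CPM (log2 fold change -0.59, SE 0.16), and Nkx2-1 had 19, 17, 6 and 3 reads (1.94, SE 0.53). Gsx2 had 2, 28, 29 and 40 reads, and all 3 were named after their values were seen. Summed endothelial markers were at 78.1, 88.4, 89.5 and 84.9 CPM, with Cldn5, a tight junction gene, leading at 22.2, 23.1, 23.5 and 24 CPM. Of these 5 markers 2 had both cKI f/+ libraries below both WT libraries, and 0 had an unadjusted p under 0.05. Summed microglial markers were at 23.2, 26, 28.5 and 28.4 CPM, with Csf1r leading at 10.3, 10.9, 11.8 and 11.6 CPM. Of these 5 markers 3 had both cKI f/+ libraries below both WT libraries and 1 had them above, and 1 had an unadjusted p under 0.05. That one was Cx3cr1, the fractalkine receptor, at 4.14, 5.24, 6.75 and 7.52 CPM (log2 fold change -0.60, SE 0.20), while C1qa, a complement gene, was at 4.37, 5.57, 4.37 and 4.19 CPM, so that KI2 and WT1 were equal as rounded, and both were named after their values were seen. Among all genes tested, 17.3% had both cKI f/+ libraries above both WT libraries and 16.9% had both below. In the edgeR fit 4.6% of them had an unadjusted p under 0.05. edgeR called 0 endothelial and 0 microglial markers. These other cell types were present at a low level in both genotypes.

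Of the choroid plexus, meningeal and blood markers edgeR called 0 as well. Their counts stand beside the same shares of all genes tested, 17.3% above, 16.9% below and 4.6% at an unadjusted p under 0.05 in edgeR. Summed choroid plexus markers were at 9.99 CPM in KI2 and 67.2 in KI3, against 1.36 and 2.81 in WT, and Ttr, which encodes the transthyretin secreted by that epithelium, had 116, 956, 0 and 4 reads. KI3 therefore stood apart from KI2 as well as from WT. Of the 5 choroid plexus markers 4 passed the filter on low counts, and 3 of these had both cKI f/+ libraries above both WT libraries and 3 an unadjusted p under 0.05. Summed meningeal markers were at 21.6 and 19.4 CPM in cKI f/+ and at 9.98 and 11.1 CPM in WT, with Col3a1, a fibrillar collagen, at 6.64, 6.68, 4.08 and 3.67 CPM, and Lum, the list's marker that failed the filter, had 6, 3, 0 and 3 reads. Of the other 5 meningeal markers, 4 had both cKI f/+ libraries above both WT libraries and 4 had an unadjusted p under 0.05. Col1a1, a fibrillar collagen named after its values were seen, had 82, 64, 10 and 28 reads (log2 fold change 1.91, SE 0.41), and Foxc1, a forkhead factor named here after its values were seen, had a log2 fold change of -0.49 with overlapping groups. Summed haemoglobin and erythroid markers were lowest in KI3, at 366 CPM against 493 in KI2, 491 in WT1 and 522 in WT3, with Hbb-bs leading at 179, 115, 181 and 199 CPM in KI2, KI3, WT1 and WT3. All 6 of these markers had a log2 fold change below 0, 4 had both cKI f/+ libraries below both WT libraries, and 3 had an unadjusted p under 0.05. Hba-a2, with 131, 234, 269 and 275 reads, and Hbb-y, at 60, 82.5, 85.4 and 67.5 CPM, both named after their values were seen, were lowest in KI2. The part of these cell types in the results was not tested. In bulk tissue, fewer cells of a type and less RNA per cell cannot be told apart.

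Sex-linked transcripts separated the same libraries. Xist, expressed from the inactive X chromosome, had 13223 and 11882 reads in cKI f/+ and 5 reads in each WT library. The Y-linked genes Ddx3y, Kdm5d and Uty had 0 reads in both cKI f/+ libraries, and Eif2s3y had 1 and 0. In WT1 and WT3 they had 364 and 393 reads for Ddx3y, 951 and 918 for Kdm5d, 218 and 214 for Uty, and 1149 and 1147 for Eif2s3y. Genotype and embryo sex therefore cannot be told apart in any value below.

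Of the 15786 genes that passed edgeR's filter on low counts, 19 were called by its quasi-likelihood test at a Benjamini-Hochberg adjusted p under 0.05, which is 0.120% of those tested, and 11 of them, 0.0697%, were higher in cKI f/+. The count was 52 without KI2, 46 without KI3, 49 without WT1 and 71 without WT3. All 10 members passed the filter, Gm13443 through its reads in cKI f/+ alone. Glo1 and Gm13443 are among the 11 genes, which is part of why these members were chosen. Both cKI f/+ libraries were above both WT libraries for Glo1, Gm13443, Akr1b8, Aldh2 and Cbr1, and both were below for Aldh9a1. Over all genes tested, 17.3% had both cKI f/+ libraries above and 16.9% had both below. The groups overlapped for Hagh, Park7, Akr1b3 and Akr1a1.

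Glo1 (ENSMUSG00000024026) encodes glyoxalase 1, the enzyme that takes up the MG and glutathione adduct, and it lies on the minus strand of chromosome 17 at chr17:30592866-30612659 of GRCm38. It had 1943 and 2129 reads in KI2 and KI3, against 1237 and 1253 in WT1 and WT3. Scaled, these were 110 and 117 CPM in cKI f/+ and 70.1 and 71.9 CPM in WT. Both knock-in libraries were high and the groups did not overlap, with means of 114 ± 5.09 CPM (SD, n = 2) and 71.0 ± 1.26 CPM (SD, n = 2). The log2 fold change was 0.68 with a standard error of 0.08, a 1.6-fold difference. Without KI3, the library with the most choroid plexus reads, the log2 fold change was 0.63, and KI2 also held more of those reads than either WT library.

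Hagh (ENSMUSG00000024158) encodes glyoxalase 2, which completes the pathway, and lies on chromosome 17 as well. It had 284 and 285 reads in cKI f/+ and 275 and 300 in WT, or 16.1, 15.7, 15.6 and 17.2 CPM in KI2, KI3, WT1 and WT3. The cKI f/+ libraries lay between the WT libraries, and the log2 fold change was -0.04 with a standard error of 0.13. The value of the second enzyme thus did not follow that of the first. Fahd1, on the opposite strand, overlaps Hagh and had 193, 198, 186 and 265 reads, and without a stated use of strand in the counting the reads of the shared stretch cannot be assigned.

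Gm13443 (ENSMUSG00000075391) is a processed copy of Glo1, without introns, at chr2:35340409-35340963 on the plus strand of chromosome 2. It had 101 and 108 reads in cKI f/+ and 3 and 2 in WT, or 5.73, 5.96, 0.17 and 0.115 CPM. Reads on it were thus at or under the floor in both WT libraries and well above it in both cKI f/+ libraries. Summed over libraries and scaled, the ratio of 209 to 5 reads was 41, with a 95% exact counting interval of 17.3 to 128 that covers counting error only and is no test, since the reads that chose the gene are those counted. It took 4.94% of the reads of the pair in KI2 and 4.83% in KI3, against 0.242% in WT1 and 0.159% in WT3.

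The sequence of the copy shows how closely its reads are tied to those of Glo1. The Glo1 coding sequence, taken from the 895-base transcript of GENCODE M21 with 7 exons, has 555 bases including the stop, and Gm13443 has the same 555 bases with 3 differences, an identity of 99.5%. The differences leave the encoded amino acids as they are, and the copy keeps an open frame of 184 codons. Of the 31-base words of Gm13443, 86.5% also occur in the Glo1 transcript, and the longest stretch without a difference has 330 bases. A read of spliced Glo1 within that stretch matches both loci, and to the copy it aligns without a gap.

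**Figure D1:**
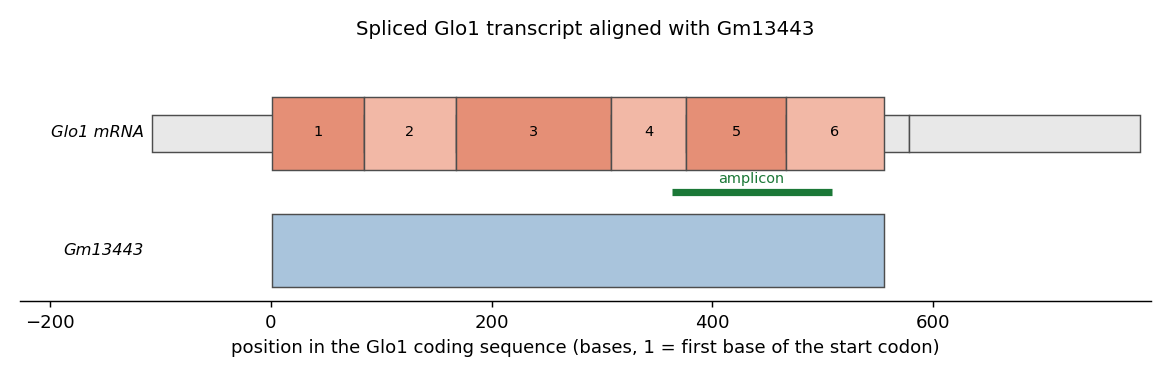
Spliced Glo1 transcript (top, exons numbered, coding part tall and coloured, untranslated parts low and grey) and Gm13443 (bottom) on 1 axis of bases in the Glo1 coding sequence. The copy spans the whole coding sequence and neither untranslated part, and the green bar marks the qPCR amplicon of 146 bases, which holds 0 differences.

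Because reads of Glo1 and Gm13443 can change place, both rows were also added together. The sums were 2044 and 2237 reads in cKI f/+ and 1240 and 1255 in WT, and the log2 fold change of the sum was 0.75 with a standard error of 0.08. In absolute reads, cKI f/+ libraries held on average 791 more reads on Glo1 than WT libraries, and 104.5 reads on Gm13443 against 2.5 in WT. Both rows were thus higher in cKI f/+ than in WT. Reads with several matches cannot be traced from the counts, so how many reads of either locus were dropped was not tested.

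The study lists 1 pair of RT-qPCR primers for Glo1 and lists it again as the coding sequence site of its ChIP-qPCR, the negative control there. Besides RT-qPCR, the study reported a higher level of Glo1 protein in cKI f/+ mice by western blot, which does not use these primers. The pair spans a part of the coding sequence with 0 differences between Glo1 and Gm13443. Both primers match Gm13443 with 0 mismatches, and the 146 bases between their outer ends are the same in Glo1 and Gm13443. Of all GENCODE M21 genes, 2 have a transcript with both primer sites, namely Glo1, in 6 of its 10 transcripts, and Gm13443. On chromosome 17 the forward site is split between exons 4 and 5 and the reverse site lies in exon 6, so that the outer ends are 3634 bases apart (chr17:30594185-30597818), and on chromosome 2 the amplicon is contiguous (chr2:35340771-35340916). The amplicon is shown once for both loci, with the primer sites in capitals.
Glo1 and Gm13443 amplicon: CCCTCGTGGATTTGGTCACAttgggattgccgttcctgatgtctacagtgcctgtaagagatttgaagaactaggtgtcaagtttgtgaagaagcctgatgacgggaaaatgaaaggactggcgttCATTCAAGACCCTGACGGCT

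Park7 (ENSMUSG00000028964), which encodes DJ-1, a redox-sensing protein described as a glutathione-independent glyoxalase and deglycase, had 2576 and 3053 reads in cKI f/+ and 2396 and 2626 in WT. This was 146, 168, 136 and 151 CPM in KI2, KI3, WT1 and WT3, and KI2 lay within the range of WT. The log2 fold change was 0.14 with a standard error of 0.09. It was 0.03 without KI3, 0.06 without WT1, 0.22 without KI2 and 0.21 without WT3.

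The aldo-keto reductases among the members reduce MG and other carbonyls with NADPH. Akr1b3 (ENSMUSG00000001642), the mouse aldose reductase, was at 47.2 and 54 CPM in cKI f/+ and at 47.1 and 47.9 CPM in WT, so that only KI3 was above WT, and its log2 fold change was 0.09 with a standard error of 0.10. It has 3 processed copies that share at least 50% of their 31-base words with it, of which Gm6736 had 2, 0, 4 and 1 reads and Gm12138 had 5, 9, 3 and 6 reads in KI2, KI3, WT1 and WT3, against 831, 979, 831 and 834 reads on Akr1b3. Akr1b8 (ENSMUSG00000029762), a relative of aldose reductase that reduces retinal and lipid aldehydes, had 53 and 36 reads in cKI f/+ and 24 in each WT library. Both knock-in libraries were above WT but differed from each other, with a mean of 2.5 ± 0.722 CPM (SD, n = 2) against 1.37 ± 0.0119 CPM (SD, n = 2), and the log2 fold change of 0.86 had a standard error of 0.33. It was 1.13 without KI3 and 0.52 without KI2, so KI2 set much of its size. Akr1a1 (ENSMUSG00000028692), the aldehyde reductase, was at 441 and 454 CPM in cKI f/+ and at 404 and 457 CPM in WT, with both cKI f/+ values inside the range of WT and a log2 fold change of 0.06 with a standard error of 0.08.

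Cbr1 (ENSMUSG00000051483) encodes carbonyl reductase, which reduces quinones, prostaglandins and small carbonyls with NADPH. It had 1306 and 1496 reads in cKI f/+ and 981 and 1089 in WT, or 74.1, 82.5, 55.6 and 62.5 CPM. Both cKI f/+ libraries were above both WT libraries, with means of 78.3 ± 5.95 CPM (SD, n = 2) and 59.1 ± 4.87 CPM (SD, n = 2). The log2 fold change was 0.41 with a standard error of 0.10, and Cbr1 was not among the called genes. With a library left out, its log2 fold change stayed above 0, at 0.47 without KI2, 0.32 without KI3, 0.33 without WT1 and 0.5 without WT3.

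The aldehyde dehydrogenases oxidize aldehydes to acids. Aldh2 (ENSMUSG00000029455), the mitochondrial enzyme that clears acetaldehyde and lipid aldehydes, was at 77 and 82.5 CPM in cKI f/+ and at 71.5 and 73.9 CPM in WT, and the log2 fold change was 0.13 with a standard error of 0.08. Aldh9a1 (ENSMUSG00000026687), which oxidizes aminoaldehydes, was at 24.8 and 27.5 CPM in cKI f/+ and at 29 CPM in each WT library, the one member with both cKI f/+ libraries below WT, and the log2 fold change was -0.15 with a standard error of 0.11. For both genes the distance between the groups was of the size of the distance between KI2 and KI3.

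**Figure D2:**
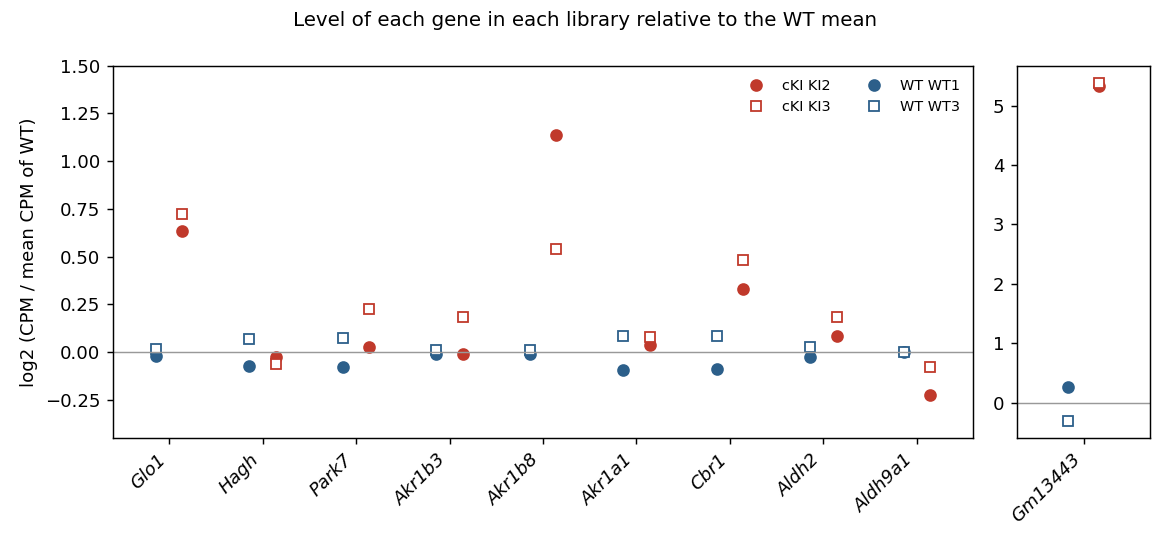
Points give each library's level of the 10 genes as log2 of its CPM over the mean CPM of WT, with cKI f/+ libraries in red (KI2 filled, KI3 open) and WT libraries in blue (WT1 filled, WT3 open), and Gm13443 on an axis of its own. Glo1 and Gm13443 show both cKI f/+ libraries close together and away from WT, Akr1b8 shows KI2 above KI3, and the cKI f/+ libraries of Hagh and Akr1a1 lie within the range of WT.

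Levels were compared between genes per kilobase of the longest coding transcript inside the counted gene bounds. Akr1a1 was highest at 309 ± 17 CPM per kb (SD over the 4 libraries), followed by Park7 at 160 ± 14.5, Glo1 at 103 ± 27.8, Cbr1 at 55.5 ± 9.69, Akr1b3 at 35.4 ± 2.41, Aldh2 at 19.7 ± 1.22 and Hagh at 13.6 ± 0.62 CPM per kb. Neighbours in this order did not overlap in any library, also for Glo1, whose 123 and 131 CPM per kb in cKI f/+ and 78.4 and 80.3 in WT stayed between those of Park7 and Cbr1. By this length, glyoxalase 1 transcripts were several times as abundant as those of glyoxalase 2. Aldh9a1, at 9.74 ± 0.704 CPM per kb, overlapped Gm13443, whose level was 10.3 and 10.7 in cKI f/+ and 0.306 and 0.207 in WT. Gm13443 overlapped Akr1b8, which was lowest by the mean of the 4 libraries at 1.42 ± 0.57 CPM per kb. In both WT libraries Gm13443 was the lowest member, below Akr1b8 at 1 and 1.01 CPM per kb. The order depends on the length used. M21 also annotates a Glo1 transcript of 9865 bases that leaves the counted bounds, and over the longest annotated transcript of each gene Glo1 came to 9.37 CPM per kb and Akr1b3 to 9.76, both below Hagh at 13.6. Over the union of exons Park7 came to 60.6 CPM per kb, Cbr1 to 26.9, Hagh to 8.47, Aldh9a1 to 8.16, Glo1 to 7.64 and Akr1b3 to 5.85. Akr1a1 stayed highest, at 160 CPM per kb over the union of exons and 197 over the longest annotated transcript. Cbr1 came to 32.1 over the longest annotated transcript.

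Promoter windows of 250 bases before the start were taken from RefSeq, on GRCm38.p6, for 7 members, and none was used for Gm13443, Akr1b3 and Aldh2. The windows were searched on both strands for TGACNNNGC, the core of the antioxidant response element, for CCAAT and for the GC box GGGCGG, which occur in 10.2%, 33.8% and 32.7% of all 32851 windows. Of the 7 members, Aldh9a1 held TGACNNNGC, at 1 site. Hagh held 2 CCAAT and 3 GC boxes over 2 windows, Aldh9a1 held 1 CCAAT, Akr1b8 held 2 GC boxes and Park7 held 1 GC box. Akr1a1 and Cbr1 held 0 of either. The Glo1 window held 1 CCAAT and 3 GC boxes, of which 2 overlap. It is shown because Glo1 is the gene on which these results turn, with the matches in capitals and the GC boxes read on this strand as CCGCCC.
Glo1 promoter, chr17:30612660-30612909, minus strand: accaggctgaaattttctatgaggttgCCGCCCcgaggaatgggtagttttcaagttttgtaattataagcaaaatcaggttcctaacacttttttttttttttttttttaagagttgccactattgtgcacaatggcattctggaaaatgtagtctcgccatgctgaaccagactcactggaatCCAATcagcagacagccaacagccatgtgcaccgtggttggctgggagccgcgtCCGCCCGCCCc

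Other genes of the pathway were taken from 6 lists with 71 genes, of which 64 are in the table and 44 passed the filter. In the quasi-likelihood fit over all genes 0 of the 44 were called in either direction, and DESeq2 and the likelihood ratio test also called 0. At an unadjusted p under 0.05 there was 1, against 4.6% of all genes tested. The 44 genes had a median log2 fold change of 0.02, beside 0.004 for all genes tested, and 25 were higher and 19 lower in cKI f/+.

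Among glyoxalase relatives, 0 of 7 were called and their log2 fold changes ran from -0.14 to 0.13. Pnkd, a metallo-beta-lactamase fold protein mutated in a paroxysmal dyskinesia, was at 86, 88.5, 83.8 and 84.5 CPM in KI2, KI3, WT1 and WT3, and Haghl, the gene most similar to Hagh, at 53.2, 59.4, 54 and 57.2 CPM. Glod4, a glyoxalase domain protein, was at 52.3, 51.6, 58.8 and 56.1 CPM (log2 fold change -0.14, SE 0.09), and Ethe1, a mitochondrial persulfide dioxygenase of the glyoxalase 2 fold, at 9.59, 10.7, 9.07 and 9.47 CPM (0.13, SE 0.16). Per length Haghl, at 39.8 ± 2.05 CPM per kb, was above Hagh in every library.

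Among other aldo-keto reductases, 0 of 5 were called. Akr1e1 was at 30.5, 34.2, 30.1 and 32.2 CPM and Akr7a5, an aflatoxin and succinic semialdehyde reductase, at 32.2, 31.4, 31.7 and 31.3 CPM, values that differed little among the 4 libraries. Akr1b10 was at 2.61, 2.59, 2.78 and 2.12 CPM, so this other relative of aldose reductase did not share the spread of Akr1b8. The log2 fold changes furthest from 0 were those of Akr1c13, at 0.81 (SE 0.44) on 20, 16, 11 and 9 reads, and Akr1c19, at -0.20 (SE 0.44) on 26, 12, 21 and 22 reads. A further 5 genes of this list never exceeded 3 reads.

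Among other aldehyde dehydrogenases, 0 of 12 were called, and the median log2 fold change was -0.03. Aldh18a1, which makes the precursor of proline, was at 131, 126, 141 and 126 CPM in KI2, KI3, WT1 and WT3. Aldh7a1, of lysine breakdown, was at 49.5, 61.6, 47.1 and 54.1 CPM and Aldh3a2, the fatty aldehyde dehydrogenase, at 37.9, 37.7, 36.2 and 31.8 CPM. Aldh1l1, a folate enzyme of radial glia and astrocytes, was at 6.75 and 8.5 CPM in cKI f/+ and at 10.4 and 16.2 CPM in WT (log2 fold change -0.80, SE 0.23, adjusted p = 0.876 in edgeR). It was the 1 gene of the 6 lists called when a library was left out, at -1.08 without WT1 (adjusted p = 0.012 from the same edgeR test), and the other fits without a library called 0. Aldh1a3, a retinoic acid synthase, had 2 and 14 reads in cKI f/+ and 18 and 21 in WT (log2 fold change -1.30, SE 0.64).

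Among other carbonyl and aldehyde reductases, 0 of 6 were called, and the median log2 fold change was 0. Adh5, the glutathione-dependent formaldehyde dehydrogenase, was at 181, 176, 169 and 187 CPM. Esd, the hydrolase that follows it as Hagh follows Glo1, was at 123, 118, 121 and 124 CPM. Both formaldehyde enzymes were nearly level over the 4 libraries. Dhrs4, a carbonyl reductase, was at 48.5, 50.3, 46.9 and 52.6 CPM. Dcxr, a dicarbonyl and xylulose reductase, was at 3.97, 4.08, 3.29 and 3.56 CPM (log2 fold change 0.23, SE 0.22), and Dhrs7 at 1.53, 1.99, 1.81 and 1.43 CPM (0.12, SE 0.33).

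Of the genes that set the supply of MG and glutathione, 0 of 9 were called, and the median log2 fold change was -0.01. Tpi1, the triose phosphate isomerase, was at 302, 355, 299 and 312 CPM (log2 fold change 0.11, SE 0.09). Aldoc, an aldolase, was at 319, 330, 315 and 308 CPM and Gapdh, which draws down triose phosphate, at 175, 196, 195 and 196 CPM. Slc7a11, the cystine importer, had 4 and 14 reads in cKI f/+ and 25 and 12 in WT, and its groups overlapped (log2 fold change -1.06, SE 0.61). The glutathione synthesis and recycling genes Gclc, Gclm, Gss and Gsr, named here after their values were seen, had log2 fold changes of -0.10, -0.03, -0.01 and 0.07.

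Among glycation receptors and repair genes, 0 of 5 were called. Prkcsh and Ddost, subunits of endoplasmic reticulum enzymes that also bind glycated proteins, were at 154, 162, 148 and 152 CPM and at 123, 139, 118 and 121 CPM (log2 fold change of Ddost 0.13, SE 0.09). Fn3krp, a ketosamine kinase, was at 22, 17.2, 20.1 and 19.7 CPM. Ager, the receptor for advanced glycation end products, was at 9.14, 7.78, 6.07 and 7.86 CPM, with overlapping groups and a log2 fold change of 0.28 (SE 0.19).

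The genes around Glo1 were then examined, since the number of copies of this region, with Dnah8, Glp1r and a part of Btbd9, is known to vary between laboratory mouse strains, DBA/2 among them. Of the 10 tested genes nearest on each side, between 29490812 and 31855792 of chromosome 17, 0 of 20 were called by edgeR's quasi-likelihood test or by DESeq2. In those 2 fits 4 and 2 of the 20 genes had an unadjusted p under 0.05, beside 4.6% of all genes tested in the edgeR fit. Of the 20 genes 13 were higher and 7 lower in cKI f/+, and their median log2 fold change was 0.06. Both cKI f/+ libraries were above both WT libraries for 5 and below for 4 of the 20, beside 17.3% and 16.9% of all genes tested.

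Dnah8, an axonemal dynein gene and the nearest tested gene upstream of Glo1 (chr17:30624354-30875264), had 52 and 53 reads in cKI f/+ and 31 and 20 in WT, or 2.95, 2.92, 1.76 and 1.15 CPM. Its log2 fold change was 1.01 (SE 0.31, adjusted p = 0.969 in edgeR), higher in both cKI f/+ libraries. Btbd9, on the other side (chr17:30215524-30576287), was at 102 and 105 CPM in cKI f/+ and at 94.9 and 84 CPM in WT, with a log2 fold change of 0.21 (SE 0.09, adjusted p = 0.969 from the same edgeR test). Glp1r, the receptor of glucagon-like peptide, had 1 and 2 reads in cKI f/+ and 0 in each WT library, all at or under the floor. Glo1, Dnah8 and Btbd9 were each higher in both cKI f/+ libraries. The next tested genes on either side, Zfand3 and Abcg1, overlapped, at 186, 204, 177 and 190 CPM and at 19.1, 20.8, 17.2 and 19.6 CPM. Further out, Cmtr1, Pde9a and Ndufv3, named after their values were seen, also had both cKI f/+ libraries above both WT libraries, with log2 fold changes of 0.28 (SE 0.19), 0.11 (SE 0.08) and 0.19 (SE 0.09). Gm16758, at 2.16 and 2.26 CPM in cKI f/+ and 3.46 and 4.76 CPM in WT (log2 fold change -0.89, SE 0.26, adjusted p = 0.937 in edgeR), and Cbs, a cystathionine synthase gene, at 14.4 and 13.9 CPM against 18.3 and 17 CPM (-0.32, SE 0.13, adjusted p = 0.969 in edgeR), lay lower in both cKI f/+ libraries and were named after their values were seen. DNA was not measured in these libraries, and the part of strain or of copy number in the value of Glo1 was not tested.

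**Figure D3:**
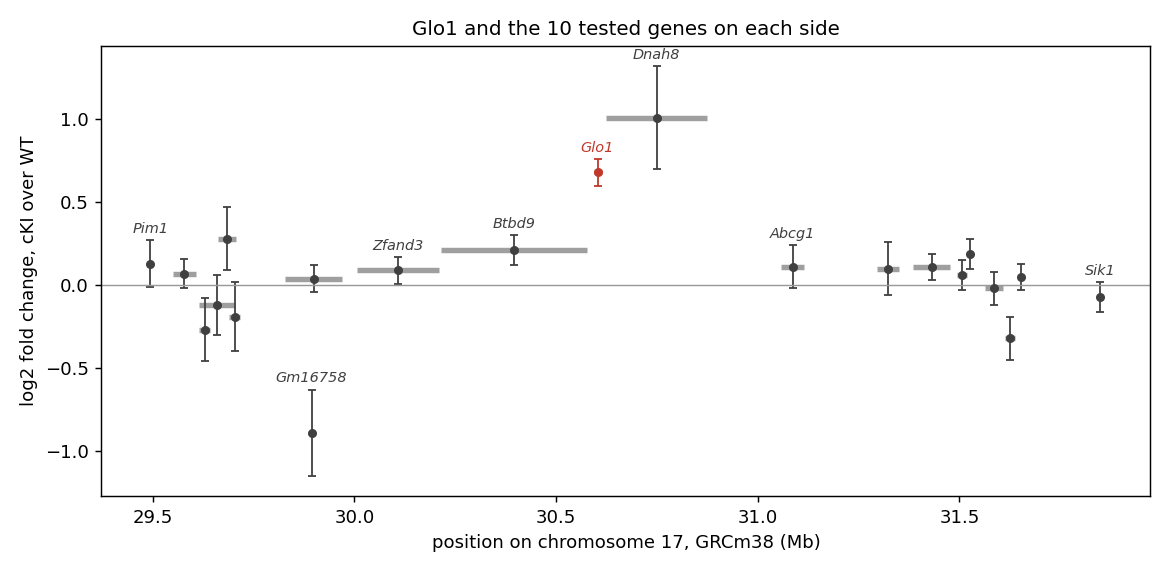
Log2 fold change of cKI f/+ over WT (points, bars give the standard error, thick lines the extent of each gene) against position on chromosome 17 for Glo1, in red, and the 20 tested genes around it. Glo1 at 0.68 and Dnah8 at 1.01 are the highest values in the window, and the wide bar of Dnah8 reflects its few reads.

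The pattern of Glo1 over the 4 libraries was compared with that of 10028 other genes at a mean of 10 CPM or more, by the Euclidean distance of log2 CPM centred over the libraries. The closest were Gm42047 on chromosome 8, at 618, 615, 419 and 415 CPM in KI2, KI3, WT1 and WT3 and a distance of 0.139, Gm14303 on chromosome 2, at 32.6, 34.8, 23.5 and 22.7 CPM and a distance of 0.149, and Klhl35 on chromosome 7, at 16.1, 17.7, 11.3 and 12.1 CPM and a distance of 0.159. The median distance was 0.697. With 4 libraries in 2 groups, such closeness describes little more than a group difference of like size with tight replicates.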

How the data were processed

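The authors deposited raw counts of reads per gene, without normalization, and per the labels and the submitters' processing notes used TopHat2 2.0.12, Bowtie2 2.2.3 and HTSeq 0.6.0. The notes name mm9, but 24486 of 26433 gene positions equal those of GENCODE M21 on GRCm38. Whether counting used strand is not given in the sources used here. Column names give genotype but no single labelled sample. The table's columns of the authors' own comparison (mean, fold change, p-values and calls) were not used. Counts were analysed in R 4.3.3 with edgeR 4.0.16 (default filter, TMM, quasi-likelihood test, Benjamini-Hochberg adjustment, threshold 0.05), tested on simulated data. A standard error is the log2 fold change over the square root of F. Alternatives were DESeq2 1.42.0, its size factors, library totals, the likelihood ratio test, other filters, removal of chromosomes X and Y, addition of copies' reads, other lengths and leaving out each library. Copies share at least 50% of 31-base words with a member's transcript. Labels do not say whether replicates are separate animals, so p-values measure the spread between these samples. Members and lists were chosen with earlier results of these data known. The text names all members and, per pathway list, called genes, the 3 with the highest mean CPM and the 2 with the largest log2 fold change; per marker list, the most abundant; and the 3 genes closest to Glo1. The single base differences between Glo1 and Gm13443 are not reported here.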

Additional observations from a re-analysis of the deposited data

How the results depend on the processing

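Glo1 was higher in cKI f/+ in all 8 alternatives, with log2 fold changes of 0.68 to 0.75, where 0.75 came from adding the reads of Gm13443, and between 0.63 and 0.72 with each library left out. Glo1 with the reads of Gm13443 lay between 0.74 and 0.75, and between 0.70 and 0.78 with a library left out. Genes called numbered 19, but 54 with the likelihood ratio test, 6 when every library had to hold 10 counts, where genes absent from a group cannot pass, 11 without chromosomes X and Y, which removes sex-linked genes, 27 with DESeq2, 16 without a filter, 18 with copies' reads added, 19 with DESeq2 size factors or library totals, and 46 to 71 with a library left out, where the lone library of a group is assumed to vary like the others. For the likelihood ratio test and the left-out libraries the cause was not tested. Called pathway genes stayed at 0 and were 0 to 1 with a library left out. Called neighbours of Glo1 stayed at 0. Hagh and Aldh9a1 were lower and the other members fitted higher under each normalization, test and filter. Without KI3 Akr1b3 was also lower, without WT1 Akr1a1, and without WT3 Hagh was higher. With a library left out, log2 fold changes ran from 0.03 to 0.22 for Park7 and from -0.01 to 0.18 for Akr1b3. They ran from -0.03 to 0.15 for Akr1a1, 0.08 to 0.17 for Aldh2 and -0.23 to -0.09 for Aldh9a1. The level of Glo1, 103 CPM per kb, was 7.64 over the union of exons and 9.37 over the longest annotated transcript, both of which leave the counted bounds, and the length used was chosen after seeing the data. Reads on Akr1b8, Gm13443, Dnah8 and Glp1r were too few for precise folds. No paired analysis was possible because the labels pair no libraries and the columns share 1 number, 3, across genotypes.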
